A study of Mus musculus with 19 samples.

Results

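The 10 transcripts described here belong to the interleukin-1 system: 3 ligands (Il1a, Il1b and Il18), a secreted receptor antagonist (Il1rn), a signalling receptor, a decoy receptor and their shared co-receptor (Il1r1, Il1r2 and Il1rap), an inflammasome sensor (Nlrp3) and 2 inflammatory caspases (Casp1 and Casp4). They were chosen by gene symbol with earlier results of these data known, and all 10 of 10 were found among the 16941 genes in the count tables. Cells came from the cortex of adult C57BL/6 mice aged 10 to 11 months and had been cultured for 4 weeks with macrophage colony-stimulating factor before treatment. APP cells came from hAPP-J20 mice, whose human amyloid precursor protein transgene carries the Swedish and Indiana mutations under a PDGF promoter, and WT cells came from wild-type mice. LPS cells received 100 ng/mL lipopolysaccharide, a bacterial cell wall component, for 6 h and then recovered in fresh medium for 16 h, and vehicle cells received medium alone on the same schedule. The 19 libraries comprised 5 of APP cells with LPS, 5 of APP cells with vehicle, 5 of WT cells with LPS and 4 of WT cells with vehicle. The PDGF promoter drives the transgene mainly in neurons, the cells were measured weeks after leaving the brain, and the number of mice behind each library is not given in the sources used here.

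Interleukin-1 alpha and beta bind the receptor IL1R1, which recruits IL1RAP to signal through MYD88 and IRAK kinases towards NF-kB. The antagonist IL1RN occupies the same receptor without signalling, and the decoy IL1R2 captures the ligand without passing a signal on. Pro-interleukin-1 beta and pro-interleukin-18 are cut into active cytokines by caspase-1 within inflammasomes such as that of NLRP3, whereas mouse caspase-11, encoded by Casp4, senses cytosolic LPS. In microglia, the resident macrophages of the brain, LPS is a classical priming signal that raises pro-interleukin-1 beta and Nlrp3 transcripts. Transcript levels say nothing of protein cleavage or release.

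Libraries were made by 3′ end sequencing with single reads of 100 bases, and held 13065257 to 31248988 counts (median 21918747). Levels are given as CPM (counts scaled to a common library size), normalised by the trimmed mean of M values, and a count of 3, taken as the floor for a gene at 0, corresponded to 0.0963 to 0.249 CPM. Of the 14 listed microglia markers 13 were in the tables, and their summed level was 774 to 5263 CPM in APP LPS, 1289 to 5758 in APP vehicle, 1222 to 5704 in WT LPS and 1686 to 6462 in WT vehicle libraries. Csf1r and Cx3cr1 were detected in all 19 libraries, whereas the homeostatic microglia marker P2ry12 was at 0 in 6 libraries, Tmem119 in 3 and Sall1 in 2. The libraries numbered 57 to 60, 1 from each group, stood apart, with summed microglia markers of 774 to 1686 CPM against 2701 to 6462 CPM in the other 15. Averaged LPS estimates of the members are given below with and without them where leaving them out changed a call or moved the estimate by over 1.5 times, and for the members whose levels in them stand apart. In bulk RNA of this kind, fewer cells of a type cannot be told apart from less RNA per cell.

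Il1b (chr2:129364570-129371139, minus strand, GRCm38) and Il1a (chr2:129299610-129309972, minus strand) lie 54.6 kb apart and moved together in these libraries, and the promoters of both are shown with those of Il1rn and Nlrp3, the members next in size of LPS change. Each sequence covers 250 bases before to 50 bases after a transcription start annotated by RefSeq on GRCm38.p6, on the strand of the gene. Capitals mark motif matches found on either strand in a search for an NF-kB consensus of 10 bases, a C/EBP motif spelled TTGCNNAA and a PU.1 motif spelled GAGGAAGT. The same search covered an AP-1 motif of the letters TGANTCA and an interferon-stimulated response element. It also covered the start-site motif of the letters TATAAA.
Il1a, chr2:129309923-129310222, minus strand: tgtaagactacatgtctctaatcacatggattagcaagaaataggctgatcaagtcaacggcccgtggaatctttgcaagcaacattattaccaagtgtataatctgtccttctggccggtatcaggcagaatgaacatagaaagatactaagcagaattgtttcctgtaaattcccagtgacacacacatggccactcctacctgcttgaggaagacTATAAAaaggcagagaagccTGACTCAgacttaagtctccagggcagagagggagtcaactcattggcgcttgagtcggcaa
Il1b, chr2:129371090-129371389, minus strand: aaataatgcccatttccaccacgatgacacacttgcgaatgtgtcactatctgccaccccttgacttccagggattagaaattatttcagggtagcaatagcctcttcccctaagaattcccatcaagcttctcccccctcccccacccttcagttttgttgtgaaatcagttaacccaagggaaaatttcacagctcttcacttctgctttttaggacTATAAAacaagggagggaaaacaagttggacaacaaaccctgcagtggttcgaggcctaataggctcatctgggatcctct
Il1rn, chr2:24336610-24336909, plus strand: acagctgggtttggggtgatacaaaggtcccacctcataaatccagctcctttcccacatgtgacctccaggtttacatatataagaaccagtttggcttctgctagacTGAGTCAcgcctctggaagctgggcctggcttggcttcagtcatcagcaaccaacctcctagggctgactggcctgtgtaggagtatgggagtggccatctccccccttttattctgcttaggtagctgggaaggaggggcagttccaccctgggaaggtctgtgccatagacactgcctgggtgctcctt
Nlrp3, chr11:59541319-59541618, plus strand: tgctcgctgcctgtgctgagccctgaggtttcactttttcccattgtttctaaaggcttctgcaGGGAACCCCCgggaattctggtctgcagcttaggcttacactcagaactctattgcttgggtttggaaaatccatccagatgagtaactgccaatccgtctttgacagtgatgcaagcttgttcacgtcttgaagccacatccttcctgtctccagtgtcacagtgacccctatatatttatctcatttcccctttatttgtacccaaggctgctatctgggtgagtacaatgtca
The Il1a and Il1b windows each held that last motif, which began 32 and 31 bases before the start and was present in 13.6% of the 32851 mouse promoters searched. Il1a also held an AP-1 match beginning at -12, Il1rn an AP-1 match at -141, and Nlrp3 an NF-kB match at -186. AP-1 matches occurred in 7.81% and NF-kB matches in 8.46% of all promoters. A Casp4 promoter held overlapping NF-kB matches from -93 and a further one at -39, while the Casp1 promoter, whose gene ends 1.56 kb from Casp4 on chromosome 9, held none of the motifs. These matches are descriptions of letters in a window, and Il1rn and Nlrp3 have further annotated starts that differ in their matches. The other Nlrp3 window held none of the motifs. Of the other Il1rn windows, 1 held none and 1 held only the TATAAA motif, so neither held an AP-1 match.

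Il1b, the main secreted interleukin-1 cytokine of activated macrophages, had the largest LPS change of the members in the fit averaged over both genotypes. Its level after LPS was 331, 729, 234, 265 and 437 CPM in the 5 APP libraries, against 14.8, 26.2, 6.36, 52.2 and 131 CPM with vehicle. In WT cells Il1b stood at 197, 242, 307, 386 and 429 CPM after LPS, against 14.03, 10.7, 61.6 and 71.0 CPM with vehicle. Every LPS library therefore exceeded every vehicle library, with a lowest LPS value of 197 CPM and a highest vehicle value of 131 CPM. Averaged over both genotypes, Il1b rose by 3.05 ± 0.48 on the log2 scale (log2 fold change ± SE, 10 LPS against 9 vehicle libraries; edgeR quasi-likelihood test, Benjamini-Hochberg adjusted p = 0.0148 over 14113 genes). Only 3 of the 14113 genes tested passed that threshold in either direction (0.0213%), and the other two were Tnf, higher, and Apoe, lower, both named after their values were seen. The Il1b call was lost when WT vehicle replicate 1 was left out (2.91, adjusted p = 0.0720) and when WT vehicle replicate 2 was left out (2.89, adjusted p = 0.0520), and over all 27 alternatives the adjusted p ranged from 5.61e-07 to 0.0720.

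Il1a, whose product also acts as an alarmin released from damaged cells, showed the same pattern at lower levels. Its level after LPS was 85.1, 151, 59.3, 96.1 and 110.2 CPM in APP libraries, against 1.09, 5.23, 0.501, 27.997 and 43.6 CPM with vehicle. WT cells had 98.5, 75.2, 75.3, 145 and 135 CPM after LPS, against 6.23, 3.10, 30.97 and 44.5 CPM with vehicle. The treatments again did not overlap, since the lowest LPS library held 59.3 CPM and the highest vehicle library 44.5 CPM. The averaged log2 difference was 2.50 ± 0.61 (SE) with an edgeR adjusted p of 0.264, so the gene did not pass this test. Over all 27 alternatives the adjusted p ranged from 0.000736 to 0.622, and 4 of them called Il1a, among them the fit with library pairs as a block in both genotypes (3.54 ± 0.51, adjusted p = 0.000736). Across all genes tested, 3 of 14113 (0.0213%) were higher in all 10 LPS libraries than in all 9 vehicle libraries. These were Il1a, Il1b and Acod1, which encodes the itaconate-producing enzyme of activated macrophages and was named after its values were seen (210 to 456 CPM after LPS, 14.2 to 167 CPM with vehicle).

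As a ratio of highest to lowest, the spread of both ligands was wider in the vehicle libraries. Il1a varied 2.55-fold from lowest to highest over the LPS libraries and 88.8-fold over the vehicle libraries, and Il1b varied 3.71-fold and 20.7-fold. The vehicle libraries 57 and 59, which have low microglia markers, held 43.6 to 44.5 CPM of Il1a, against 0.501 to 30.97 CPM in the other 7 vehicle libraries. They held 71.0 to 131 CPM of Il1b, against 6.36 to 61.6 CPM. Without libraries 57 to 60 the averaged log2 difference of Il1b was 3.63 ± 0.47 (edgeR adjusted p = 0.00219), and that of Il1a was 3.18 ± 0.68 (adjusted p = 0.0677).

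Il18, the third ligand and a constitutively expressed caspase-1 substrate, did not separate by treatment. It ranged from 8.54 to 23.7 CPM in APP LPS, 6.46 to 18.5 in APP vehicle, 8.16 to 29.5 in WT LPS and 5.52 to 18.02 in WT vehicle libraries. Its averaged log2 difference was 0.48 ± 0.35 (SE; edgeR adjusted p = 1.00), and it was higher with LPS in 5 of 9 library pairs. The gene overlaps Bco2 and Tex12 on the opposite strand, and the strand setting of the counting is not given in the sources used here, so reads of these genes may not be separable. The same limit applies to other members. Il1b overlaps Il1bos, Il1a overlaps Gm14023, Il1r2 overlaps Gm16894 and Il1rap overlaps Gm20319 on the opposite strand. None of those overlapping genes was among the genes counted.

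**Figure D1:**
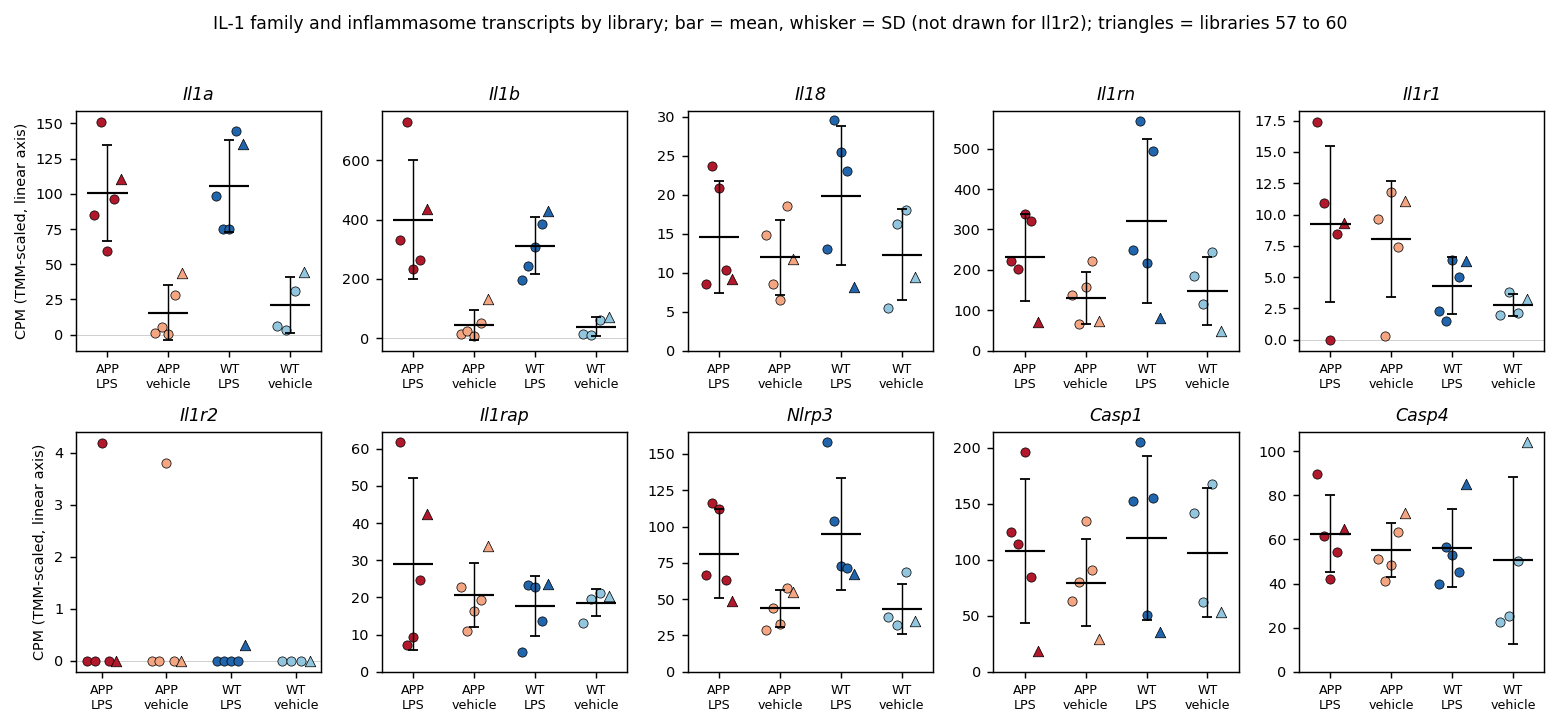
CPM of each of the 10 transcripts on linear axes, with 1 point per library, the group mean as a bar and the SD as a whisker (neither drawn for Il1r2), and libraries 57 to 60 as triangles. Il1a and Il1b are the panels in which LPS and vehicle libraries do not overlap, with Il1b at 197 to 729 CPM after LPS and 6.36 to 131 CPM with vehicle.

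Il1rn, the antagonist that blocks both interleukin-1 ligands at their receptor, was abundant in every group. APP libraries held 221, 203, 339, 322 and 70.8 CPM after LPS, against 137, 65.7, 159, 221 and 72.2 CPM with vehicle. WT libraries held 249, 568, 218, 493 and 80.9 CPM after LPS, against 184, 117, 244 and 49.7 CPM with vehicle. The treatments overlapped, and the lowest LPS values of both genotypes were in libraries 60 and 58 (70.8 and 80.9 CPM), against 203 to 568 CPM in the other 8. The averaged log2 difference was 0.97 ± 0.36 (SE; edgeR adjusted p = 0.631), and Il1rn was higher with LPS in 8 of 9 library pairs. It was 0.98 ± 0.27 without libraries 57 to 60 (adjusted p = 0.231), and of 27 alternatives only the pair block in both genotypes called it (0.92 ± 0.14, adjusted p = 0.00107).

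The receptors showed no LPS call. Il1r1, the signalling receptor, was low and uneven, at 17.4, 10.9, 0, 8.48 and 9.35 CPM in APP LPS libraries, against 9.66, 0.333, 11.8, 7.44 and 11.1 CPM in APP vehicle libraries. WT libraries ranged from 1.48 to 6.36 CPM after LPS and from 1.96 to 3.79 CPM with vehicle, and the averaged log2 difference was 0.41 ± 0.72 (SE; edgeR adjusted p = 1.00). Il1rap, the co-receptor, ranged from 7.08 to 61.7 CPM in APP LPS, 11.0 to 33.9 in APP vehicle, 5.42 to 23.5 in WT LPS and 13.1 to 21.2 in WT vehicle libraries, with an averaged log2 difference of 0.21 ± 0.37 (SE). The decoy receptor Il1r2 was detected in 3 of the 19 libraries only, with 69 counts in APP LPS replicate 3, 76 counts in APP vehicle replicate 3 and 8 counts in WT LPS replicate 5. Il1r2 was at 0 in the other 16 libraries, did not pass the low-count filter and was not tested, and no fold is given for it. The 2 libraries with the most Il1r2 counts, numbers 12 and 11, form 1 library pair, and Il1r1 was at 0 in library 12 and at 11.8 CPM in library 11.

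Nlrp3, the sensor of the best-studied inflammasome, was mostly higher after LPS. APP libraries held 66.7, 116, 112, 63.3 and 48.4 CPM after LPS, against 28.5, 44.0, 32.9, 57.4 and 55.2 CPM with vehicle. WT libraries held 158, 104, 72.5, 71.2 and 67.3 CPM after LPS, against 37.7, 31.9, 68.7 and 35.02 CPM with vehicle. The ranges overlapped in both genotypes, and in WT cells only the vehicle library at 68.7 CPM reached the LPS range. The averaged log2 difference was 1.01 ± 0.23 (SE; edgeR adjusted p = 0.198), with Nlrp3 higher in 8 of 9 library pairs. It was 1.13 ± 0.25 without libraries 57 to 60 (adjusted p = 0.0835), and 3 of 27 alternatives called it, the pair block in both genotypes among them (0.89 ± 0.20, adjusted p = 0.0276).

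The caspases did not separate by treatment. Casp1, the protease that matures interleukin-1 beta and interleukin-18, ranged from 18.7 to 196 CPM in APP LPS, 29.2 to 135 in APP vehicle, 35.4 to 205 in WT LPS and 53.7 to 168 in WT vehicle libraries. Casp4 ranged from 42.0 to 89.6 CPM in APP LPS, 41.2 to 72.1 in APP vehicle, 39.9 to 85.2 in WT LPS and 22.5 to 104 in WT vehicle libraries. Averaged log2 differences were 0.30 ± 0.38 for Casp1 and 0.16 ± 0.25 for Casp4 (SE; edgeR adjusted p = 1.00 for both). Their bounds at 2 SE were -0.46 to 1.06 for Casp1 and -0.34 to 0.67 for Casp4. Without libraries 57 to 60 the estimates were 0.33 ± 0.28 for Casp1 and 0.43 ± 0.22 for Casp4 (adjusted p = 0.896 and 0.678).

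**Figure D2:**
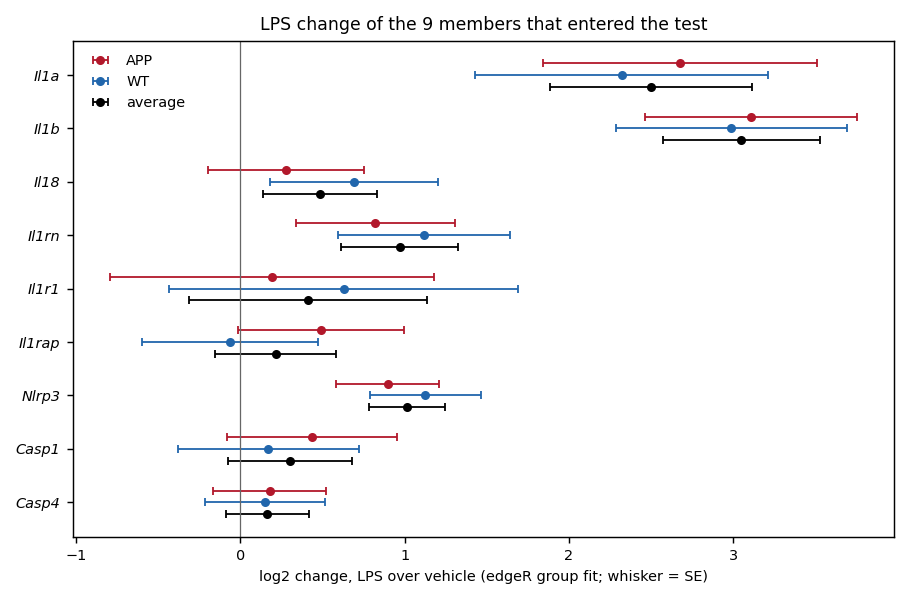
Log2 change of LPS over vehicle with its SE for the 9 tested members in APP cells (red), WT cells (blue) and averaged over both genotypes (black), from the edgeR fit over 19 libraries. Il1b (3.05 averaged) and Il1a (2.50) lie farthest from 0, followed by Nlrp3 (1.01) and Il1rn (0.97), and the APP and WT estimates overlap within their SE for every member.

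As a list, 9 of 9 tested members had an averaged LPS estimate above 0 with a median log2 difference of 0.48, while over all 14113 genes 47.9% were above 0 with a median of -0.02. Of these 9 members 1 passed the test as higher, against 0.0142% of all genes. The averaged estimates of Il18, Il1r1, Il1rap, Casp1 and Casp4 lay within 2 SE of 0. The members were chosen with earlier results of these data known, so these counts describe the list and do not test it. Within a genotype, no gene passed the edgeR test for LPS, with counts of 0 (0.0%) in APP and 0 (0.0%) in WT cells. Before adjustment, 679 genes in APP and 516 in WT cells had p under 0.05. DESeq2 called 76 genes in APP cells (0.539%) and 89 in WT cells (0.631%), and Il1b was the member among them in each case (log2 difference 3.12 in APP and 2.98 in WT cells). In the edgeR fit the log2 difference of Il1b was 3.11 ± 0.64 in APP and 2.99 ± 0.70 in WT cells, and that of Il1a was 2.68 ± 0.83 and 2.32 ± 0.89 (SE).

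Libraries with consecutive numbers, odd for vehicle and even for LPS, formed 9 pairs of the same genotype, 5 in APP and 4 in WT cells, and WT LPS replicate 1 had no partner. Differences within pairs are on the log2 (CPM + 0.5) scale, which understates changes of low genes. Il1b was higher with LPS in 9 of 9 pairs, by 3.60 ± 1.27 (mean ± SD). Il1a was higher in 9 of 9 pairs by 3.46 ± 1.81, where 0.935% of all tested genes were higher in all 9 pairs. The pairwise changes of Il1a were 5.75, 4.72, 5.90, 1.76 and 1.33 in APP cells and 3.49, 4.40, 2.21 and 1.59 in WT cells. In both genotypes the pairs with the smallest Il1a changes were those whose vehicle library, which itself enters the difference, had the highest Il1a level. Il1rn differed by 0.91 ± 0.52 with 8 of 9 pairs higher, and the exception was the APP pair of libraries 59 and 60 at -0.03. Nlrp3 differed by 0.88 ± 0.70, and the same pair was its exception at -0.19. The other members were mixed, with 6 of 9 pairs higher for Il1r1 and Il1rap, 5 for Il18, and 4 for Casp1 and Casp4. Il1r1 had the widest spread, between -4.62 in the pair of libraries 11 and 12 and 3.77 in the pair of libraries 7 and 8.

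**Figure D3:**
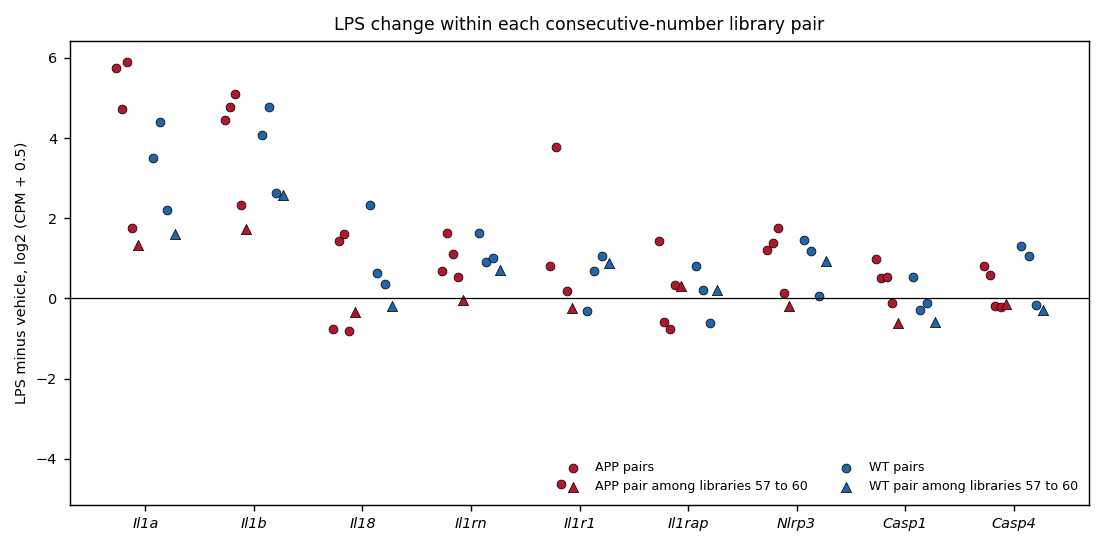
Difference of LPS minus vehicle on the log2 (CPM + 0.5) scale in each of the 9 library pairs for 9 members (Il1r2, at 0 in most libraries, is left out), with APP pairs in red, WT pairs in blue and the pairs among libraries 57 to 60 as triangles. All 9 points lie above 0 for Il1a and Il1b, whereas the other members have at least 1 pair at or below 0.

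In APP cells the paired libraries deviated together from their group means (correlations of 0.130 to 0.352 over genes). The pair of libraries 3 and 4 did not exceed the highest correlation of its vehicle library with another APP LPS library (0.130 against 0.140). With the pair as a block, edgeR called 83 of 14113 genes for LPS in APP cells (0.588%), 42 of them higher (0.298%). Il1b rose by 3.73 ± 0.46 in APP cells in that fit (edgeR adjusted p = 6.63e-04) and Il1a by 4.11 ± 0.73 (adjusted p = 0.0110). Il1rn at 0.79 ± 0.19 (adjusted p = 0.0672) and Nlrp3 at 0.87 ± 0.27 (adjusted p = 0.236) did not pass. The Il1b call held in all 11 alternatives of the paired fit, with adjusted p between 3.59e-06 and 0.0368. The Il1a call held in 8 of 11 and was lost without the pair of libraries 7 and 8 (adjusted p = 0.128), without the pair of libraries 11 and 12 (adjusted p = 0.0717) and with the 10 APP libraries fitted alone (adjusted p = 0.130). Without libraries 57 to 60, 173 genes (1.23%) were called and both Il1rn (0.98, adjusted p = 0.00611) and Nlrp3 (1.14, adjusted p = 0.0421) were among them. Applied to both genotypes, the pair block called 211 of 14113 genes for averaged LPS (1.5%), 115 of them higher (0.815%), and 4 members, all higher: Il1a, Il1b, Il1rn and Nlrp3. The WT pairs in that fit had correlations of 0.0959 to 0.292, each above the highest with another WT LPS library.

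Ratios of counts between members were taken within each library and compared between libraries, as a description with no test. The ratio of the antagonist Il1rn to Il1b had a median of 0.964 over the 10 LPS libraries, against 4.24 over the 9 vehicle libraries, with ranges of 0.162 to 2.34 and 0.549 to 24.9. In APP cells it was 0.669, 0.279, 1.45, 1.22 and 0.162 after LPS, against 9.27, 2.51, 24.9, 4.24 and 0.549 with vehicle. In WT cells it was 1.26, 2.34, 0.710, 1.28 and 0.189 after LPS, against 13.1, 10.9, 3.95 and 0.701 with vehicle. The ratio was lower with LPS in 9 of 9 library pairs, by a mean log2 difference of -2.73 ± 1.03 (SD). The 2 lowest vehicle ratios belonged to libraries 57 and 59, so the ranges of LPS and vehicle overlapped although every pair moved the same way. Without libraries 57 to 60 the medians were 1.24 over 8 LPS and 9.27 over 7 vehicle libraries, and the ranges of 0.279 to 2.34 and 2.51 to 24.9 did not overlap. The ratio of Il1b to Il18 was higher with LPS in 9 of 9 pairs, by 3.15 ± 1.11 (SD), while that of Il1b to Il1a differed by -0.05 ± 1.00, with 6 of 9 pairs higher. The ratios with Il1rn and with Il18 share Il1b, which alone rose by 3.60 within pairs, against 0.91 for Il1rn and 0.47 for Il18. The ratio of Casp4 to Casp1 differed by 0.22 ± 0.62 within pairs. Between libraries it was 3.46 and 2.47 in the APP LPS and APP vehicle libraries numbered 60 and 59, and 2.41 and 1.94 in the WT LPS and WT vehicle libraries numbered 58 and 57, against 0.158 to 1.04 in the other 15.

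**Figure D4:**
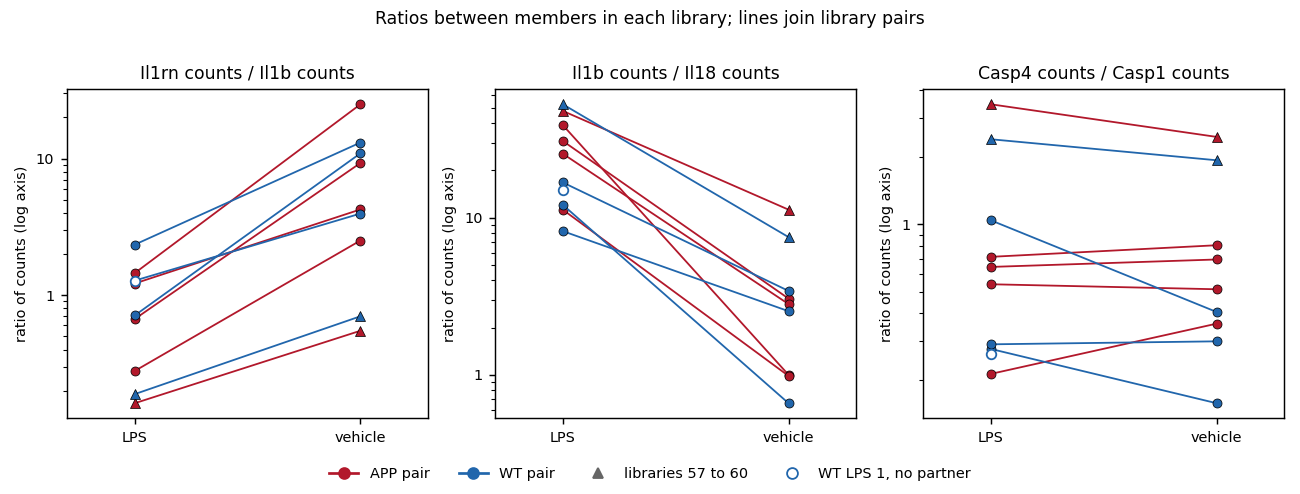
Ratios of counts between members on log axes, with LPS on the left and vehicle on the right and a line joining each library pair (APP red, WT blue, libraries 57 to 60 as triangles, and WT LPS replicate 1, which has no partner, as an open circle). All 9 lines for Il1rn to Il1b lie lower at LPS and all 9 for Il1b to Il18 lie higher at LPS, while Casp4 to Casp1 separates libraries 57 to 60 (1.94 to 3.46) from the rest.

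No member passed the test of APP against WT cells. The edgeR test passed 0 genes (0.0%) for APP against WT after LPS and 0 (0.0%) with vehicle, where 482 and 402 genes had p under 0.05 before adjustment. DESeq2 called 69 (0.489%) and 64 genes (0.453%), with 0 members among them. After LPS, Il1b averaged 399 ± 200.2 CPM in APP and 312 ± 96.6 CPM in WT cells, and Il1a averaged 100.4 ± 33.9 CPM in APP and 106 ± 32.8 CPM in WT cells (SD, n = 5 each). The APP minus WT log2 difference after LPS was 0.35 ± 0.59 for Il1b, -0.08 ± 0.78 for Il1a and -0.48 ± 0.48 for Il1rn (SE; edgeR adjusted p = 1.00 for each). At 2 SE, the bounds ran from -0.83 to 1.54 for Il1b and from -1.64 to 1.49 for Il1a, so these libraries bound the genotype differences only loosely. Il1r1 had the largest genotype estimates, 1.10 ± 1.00 after LPS and 1.54 ± 1.09 with vehicle, and its ranges overlapped between genotypes in both treatments. Over 25 alternatives that estimate lay between 0.13 and 1.42 after LPS and between 1.09 and 1.85 with vehicle. With vehicle, the estimate was 0.23 ± 0.63 for Il1b, -0.43 ± 0.83 for Il1a and -0.18 ± 0.51 for Il1rn.

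The LPS change itself was compared between genotypes by the interaction of genotype and LPS, which tests whether APP cells responded by a different amount. No gene passed it in edgeR (0 genes, 0.0%), where 385 had p under 0.05 before adjustment, and DESeq2 called 99 genes (0.701%) with 0 members among them. The interaction estimate was 0.12 ± 0.87 for Il1b, 0.36 ± 1.14 for Il1a, -0.29 ± 0.70 for Il1rn and -0.23 ± 0.45 for Nlrp3 (SE; edgeR adjusted p = 1.00 for each). Ordered by group mean, Il1b stood at 399 CPM in APP cells and 312 CPM in WT cells after LPS, followed by 46.2 CPM in APP and 39.3 CPM in WT cells with vehicle, and only the step between the LPS and vehicle groups exceeded the SD of the groups beside it. The order of Il1a was WT LPS (106 CPM), APP LPS (100.4), WT vehicle (21.2) and APP vehicle (15.7), with the same single step.

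Some members stood apart in the libraries numbered 57 to 60, which had low microglia markers. In LPS libraries 58 and 60, Casp1 was at 18.7 to 35.4 CPM, against 50.9 to 205 CPM in the other 8 LPS libraries. With vehicle it was at 29.2 to 53.7 CPM in libraries 57 and 59, against 61.9 to 168 CPM in the other 7. Casp4 went the other way, at 72.1 to 104 CPM in vehicle libraries 57 and 59, against 22.5 to 63.2 CPM in the other 7, whereas with LPS the ranges overlapped (64.8 to 85.2 CPM and 39.9 to 89.6 CPM). Il1rn was low in libraries 58 and 60, as given above, and overlapped with vehicle (49.7 to 72.2 CPM and 65.7 to 244 CPM). The border macrophage markers, 6 of 6 in the tables, summed to 895 to 1962 CPM in libraries 57 to 60, against 2409 to 7414 CPM in the other 15. The monocyte markers (4 of 5 in the tables) summed to 72.5 to 304 CPM, against 15.8 to 75.2 CPM, although the defining marker Ly6c2 was at 0 in 17 of the 19 libraries. Most of that sum came from Vcan (14.7 to 268 CPM), a matrix gene that fibroblasts also express, while Ccr2 reached 13.2 CPM at most and Plac8 was at 0 in 13 libraries. The fibroblast and pericyte markers (9 of 9) summed to 1971 to 5245 CPM, against 1067 to 3968 CPM, and the neutrophil markers (4 of 8) to 26.5 to 73.9 CPM, against 31.6 to 298 CPM. S100a8 (15.6 to 227 CPM) had the highest median of these neutrophil markers, and Camp was at 0 in 7 libraries. The neutrophil sum was also higher with LPS in every library pair, by very little in some. It was 149.6 CPM with LPS against 148.5 with vehicle in libraries 42 and 41, and 66.6 against 64.7 CPM in libraries 58 and 57. The part of these cell types in the member levels was not tested.

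**Figure D5:**
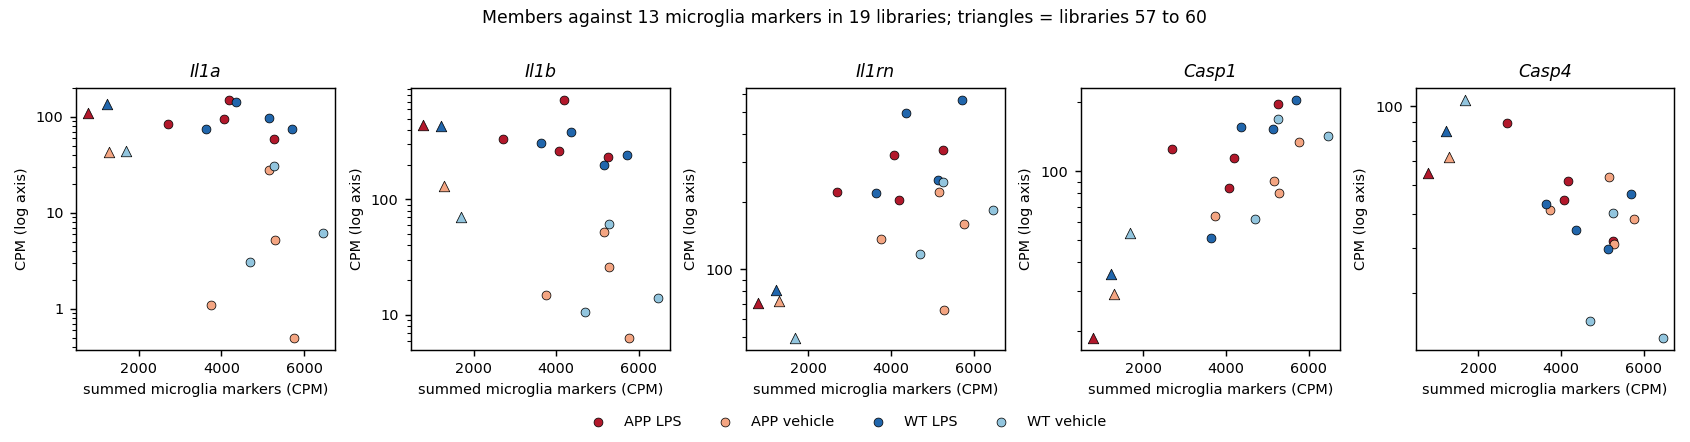
CPM of 5 members on a log axis against the summed CPM of 13 microglia markers in each of the 19 libraries, coloured by group, with libraries 57 to 60 as triangles. Those 4 libraries lie between 774 and 1686 CPM of markers and hold low Casp1, while their vehicle libraries hold high Il1a, Il1b and Casp4.

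The genes whose levels were ordered most like Il1b over the 19 libraries, by Spearman correlation among 8241 genes with a mean of at least 10 CPM, were Adora2b (0.90), Traf1 (0.87), Gbp2 (0.86), Upp1 (0.85) and Ier3 (0.85). Among the members, the value was 0.95 for Il1a, 0.66 for Nlrp3, 0.51 for Casp4, 0.24 for Il1rn and -0.11 for Casp1. These values mix the treatment difference with the spread inside groups. After group means were subtracted, the nearest genes were Naa25 (0.91), Cxcl2 (0.89), Btg1 (0.87), Adora2b (0.87) and Mndal (0.87). Il1a stayed close at 0.93 and Casp4 stood at 0.75, while Nlrp3 was at 0.28, Il1rn at -0.22 and Casp1 at -0.36. The libraries share depth and marker content with these values, and no p is given. Adora2b, an adenosine receptor gene named under both measures, averaged 53.7 ± 17.5 CPM in APP LPS, 23.3 ± 15.2 in APP vehicle, 42.9 ± 3.58 in WT LPS and 21.9 ± 12.8 CPM in WT vehicle libraries (SD).

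The wider pathway was read from 4 lists. Of the other interleukin-1 family ligands, 2 of 6 were tested and 0 passed the averaged LPS test (median log2 difference 0.63). These counts are by edgeR, and in the ligand and receptor lists 0 genes had p under 0.05 before adjustment and DESeq2 called 0. Il36g, an epithelial family member, was at 7.29 CPM in APP LPS, 3.06 in APP vehicle, 2.71 in WT LPS and 0.974 CPM in WT vehicle libraries on average. Its medians in the same order were 2.30, 2.07, 2.78 and 0.191 CPM, and its highest APP LPS library held 20.4 CPM. Il33, a nuclear alarmin, reached 53.1 CPM in 1 APP LPS library and 85.9 CPM in 1 APP vehicle library. The highest WT values were 7.47 CPM after LPS and 4.62 CPM with vehicle. The group medians of Il33 were lower in APP cells, at 2.34 CPM after LPS and 1.903 CPM with vehicle. In WT cells they were 5.27 CPM after LPS and 3.56 CPM with vehicle. Of the other receptors and inhibitors, 4 of 8 were tested and 0 passed (median -0.18). Il18bp, the soluble inhibitor of interleukin-18, averaged 18.7 CPM in APP LPS, 21.0 in APP vehicle, 22.5 in WT LPS and 19.8 in WT vehicle libraries. Il1rl2, the receptor for interleukin-36, averaged 8.02 CPM in APP LPS, 6.04 in APP vehicle, 7.80 in WT LPS and 3.06 in WT vehicle libraries.

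Among 21 further inflammasome and pyroptosis genes, 20 were tested, 0 passed the averaged test and 11 had an estimate above 0 (median 0.11, against -0.02 over all genes). Gbp2, an interferon-induced GTPase of the caspase-11 pathway, differed by 1.41 ± 0.50 (SE; edgeR adjusted p = 0.621) and averaged 183 CPM in APP LPS, 74.1 in APP vehicle, 165 in WT LPS and 57.6 CPM in WT vehicle libraries. The highest APP vehicle library held 260 CPM of Gbp2, against a group median of 29.7 CPM. That library lay within the APP LPS range of 96.8 to 267 CPM, and the WT ranges also overlapped. Nek7, which binds NLRP3, differed by -0.19 ± 0.15 and Casp8 by 0.29 ± 0.27. All 12 genes of interleukin-1 receptor signalling were tested and 0 passed (median 0.18). Irak3, an inhibitory IRAK family member, was higher in 9 of 9 library pairs and differed by 1.27 ± 0.25 (SE; edgeR adjusted p = 0.106), at 127 CPM in APP LPS, 53.2 in APP vehicle, 132 in WT LPS and 54.1 CPM in WT vehicle libraries. The kinase Irak1 differed by -0.16 ± 0.14 and the adaptor Tab2 by -0.29 ± 0.18. Before adjustment, edgeR gave p under 0.05 for 3 of the inflammasome genes (Gbp2, Nlrp1a and Nlrp1b) and 1 of the signalling genes (Irak3), and DESeq2 called 1 in each list, Nlrp1a and Irak3. Over all 14113 genes 6.15% had p under 0.05 and 1.26% were called by DESeq2. Nlrp1a, an inflammasome sensor, was at 0 in 7 of 10 LPS and 8 of 9 vehicle libraries, and 1 APP LPS library at 9.48 CPM carried its group, whose other 4 libraries were at 0. Nlrp1b, a related sensor, was at 0 in 8 of 10 LPS and 3 of 9 vehicle libraries, and both were named after their values were seen. The pair are close paralogs, so the split of reads between them is uncertain. With the library pair as a block, the averaged edgeR test called Gbp2 and Irak3 higher (adjusted p = 0.00759 and 0.00766), and in APP cells with the library pair as a block, 0 genes of the 4 lists passed.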

How the data were processed

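The 19 libraries are QuantSeq 3′ mRNA libraries prepared with molecular identifiers and spike-ins, per the labels' protocols, and 0 spike-in rows are in the tables. Each deposited table lists estimated counts by gene symbol, with FastQC, Trimmomatic, kallisto and DESeq2 named in the submitters' processing notes. All deposited counts were whole (0 values changed on rounding) and every gene totalled at least 10. No source used here gives the genome build, strand setting or use of identifiers in counting, so PCR copies may be counted.

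Groups follow the sample titles. The main test was edgeR 4.0.16 (glmQLFit and glmQLFTest, R 4.3.3) with 1 coefficient per group over all 19 libraries, TMM scaling and filterByExpr, which kept 14113 of 16941 genes. Adjusted p-values are Benjamini-Hochberg over all genes tested, called under 0.05. Alternatives were DESeq2 1.42.0, its size factors, no low-count filter, a replicate block, a library pair block, limma 3.58.1 voom with the pair as a random effect, a sex covariate, and leaving out libraries 57 to 60 or each library. Sex was not taken from the labels but inferred from Ddx3y, a Y chromosome gene, with libraries above 100 counts taken as male. By this rule 8 libraries were male and 11 female, every group held both, and libraries 57 to 60 were all female. Pairs of consecutive library numbers were checked by correlating deviations from group means: 0.130 to 0.352 in APP, where they equal the replicate numbers, and 0.0959 to 0.292 in WT. All APP pairs exceeded 0.1, and the paired fit is given in most detail for APP. The WT pair of libraries 41 and 42 did not exceed 0.1 (0.0959). Differences within pairs and the averaged pair block nevertheless include the WT pairs. The APP pair of libraries 3 and 4 did not exceed its highest correlation with another LPS library (0.130 against 0.140), whereas every WT pair did. WT LPS replicate 1 is library 5 in its label and 6 in its file, and adds nothing to a paired fit. On simulated data for the averaged LPS contrast (13444 genes), the test recovered 62% of 100 genes changed by 1.5 and 87% of 100 changed by 3 on the log2 scale and called 16 unchanged genes. With much smaller dispersions (14006 genes), it recovered 100% of each and called 12 unchanged genes. The changed genes were drawn from genes above a low CPM limit, and no library pairs were simulated. So many planted changes also make the adjusted threshold easier to pass than in the real averaged contrast, where 3 genes passed. The shares recovered may therefore overstate what the test can detect in these data. No 2 libraries of a group agreed within counting noise (smallest chi-square per degree of freedom 85.9 over 36 pairings). The labels do not say that libraries come from separate animals, so p-values measure the spread between libraries, which may be technical.

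The members and lists were chosen with earlier results of these data known. All 10 members are named, with, from each pathway list, up to 3 genes of smallest averaged LPS p with a group mean of at least 5 CPM, and the 5 genes nearest Il1b per measure. Promoters are RefSeq on GRCm38.p6, matched for all 10 members by symbol, and gene positions are from the GRCm38 annotation.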

Additional observations from a re-analysis of the deposited data

Results flagged for a closer look

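Within each group of 4 or 5 libraries, every member was examined for a library whose gap to the nearest other took most of the group's range, and 4 of 40 groups met that criterion. Chance flags about 1 in 20 groups, a rate that does not apply to the 3 groups of Il1r2 below, where any single library above 0 meets the criterion. Il1r2 stood at 4.19 CPM in APP LPS replicate 3, at 3.81 CPM in APP vehicle replicate 3 and at 0.304 CPM in WT LPS replicate 5, with the other libraries of each group at 0. Nlrp3 stood at 68.7 CPM in WT vehicle replicate 3, and the next highest WT vehicle library held 37.7 CPM.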

How the results depend on the processing

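In the averaged LPS contrast, where 3 genes and 1 member were called, DESeq2 called 178 genes and 3 members, the replicate block 39 and 2, the library pair block 211 and 4 (Il1a, Il1b, Il1rn, Nlrp3), and voom with the pair 68 and 3, and leaving out libraries 57 to 60 gave 31 genes. In that pair block Gbp2 (adjusted p = 0.00759) and Irak3 (0.00766) were called higher. In APP cells (0 genes in the main analysis), DESeq2 called 76 genes and 1 member, the replicate block 2 and 1, the library pair block 83 and 2, voom 9 and 1, and leaving out 57 to 60 gave 4 and 1. In WT cells (0 genes), DESeq2 called 89 and 1, the library pair block 21 and 2, and voom 3 and 2. For APP against WT, DESeq2 called 69 genes after LPS and 64 with vehicle, and 1 gene was called after LPS without 57 to 60. For the interaction DESeq2 called 99 genes and the replicate block 1. The paired APP fit gave 173 genes and 4 members without 57 to 60 and 13 and 1 with APP libraries alone, both chosen after seeing the data. The cause of these differences was not tested, except that fewer libraries enter some of them.

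Leaving out 1 library at a time gave 0 to 11 genes and 0 to 1 members for averaged LPS, 0 to 2 genes and 0 to 1 members for LPS in APP, and 0 to 1 genes for APP against WT after LPS. Leaving out 1 library pair at a time in the paired APP fit gave 9 to 142 genes and 1 to 3 members. Signs turned for estimates near 0: the averaged LPS estimate of Il1rap was -0.12 with the replicate block and -0.0251 to 0.34 across left-out libraries. Without 57 to 60, Il1b for APP against WT with vehicle was -0.20 and the Nlrp3 interaction 0.000209. Across left-out libraries, APP against WT ran from -0.27 to 0.0653 for Il1a after LPS, and with vehicle from -1.29 to 0.25 for Il1a, -0.66 to 0.71 for Il1b and -0.46 to 0.17 for Il1rn. The interaction ran from -0.33 to 1.21 for Il1a, -0.36 to 1.02 for Il1b, -0.66 to 0.0117 for Il1rn and -0.55 to 0.0388 for Nlrp3. Il1b and Il1a kept a positive LPS estimate in every alternative run. The replicate numbers do not pair WT libraries (correlations -0.0910 to 0.0659).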
